A study of Mus musculus with 10 samples.

Results

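The collagen genes of the mouse genome were followed in RNA-seq libraries of the newborn cochlea, the coiled hearing organ of the inner ear. Members were the protein-coding genes whose symbol begins with Col, a number, the letter a and a second number, which gave 45 of the 54532 genes in the deposited table. Of these, 44 encode collagen chains, and the remaining one, Col4a3bp, matches by symbol only and encodes a ceramide transport protein. A gene was tested when it had at least 10 counts in at least 5 libraries, and 42 members met this, 41 of them collagens. Col19a1, Col6a4 and Col6a5 were not tested, with 0 to 11, 0 to 8 and 1 to 20 counts per library.

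All libraries came from female mice on postnatal day 1, and each held the pooled soft tissue of both cochleae of 1 animal after removal of the bony capsule. The 5 control libraries were from Esrrgfl/fl animals, in which both copies of Esrrg, the gene of the nuclear receptor estrogen-related receptor gamma, are flanked by recombination sites. The 5 libraries labelled conditional knockout (cKO) were from Esrrgfl/fl;Sox10-Cre animals, in which the recombinase Cre is made under regulatory sequence of Sox10, a gene used early in the inner ear epithelium and in neural crest derivatives such as glia. Cells that never used Sox10 would keep the floxed gene, and because the controls carry no Cre, the presence of Cre and the loss of Esrrg cannot be told apart. The targeted gene went against its label. Esrrg read 56.3, 47.9, 61.2, 64.8 and 62.0 CPM (counts scaled to a library total of 1000000) in control 1 to 5 and 109, 96.2, 78.5, 70.6 and 94.2 CPM in the libraries labelled cKO 1 to 5. It was thus higher in every library labelled cKO, by 0.62 on the log2 scale (SE 0.118, adjusted p = 0.0292 by edgeR's quasi-likelihood F-test), and the adjusted p ran from 0.0131 to 0.0998 when 1 library was left out. The counts are per gene, so reads outside a deleted segment still count, and the check does not show whether the deletion took place.

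Collagens are the main structural proteins of the extracellular matrix, and each molecule is a triple helix of chains encoded by the same or by different genes. Fibrillar collagens form the fibres of bone, ligament and connective tissue, network collagens such as type IV form basement membranes, and fibril-associated collagens coat the fibres. In the cochlea, collagen types II, IX and XI also build the tectorial membrane, the gel sheet above the hair cells, and type IV collagen lines the vessels and epithelia. Type X collagen is made by hypertrophic chondrocytes, the swollen cartilage cells that precede bone.

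Promoter sequence was examined first, because estrogen-related receptors bind a short DNA half-site and the collagens could be compared with all genes on its presence. RefSeq promoter entries (GRCm38.p6) existed for 35 members, with 38 entries in all, and the 250 bases before each start were searched on both strands. The half-site AAGGTCA stood in 13.2% of collagen entries and 4.08% of all 32851 entries, the TATA box TATAAA in 13.2% and 12.4%, the CCAAT box CCAAT in 34.2% and 33.8%, and the SOX-type motif ACAAAG in 10.5% and 16.5%. The 5 collagen entries with the half-site belonged to Col7a1, Col9a1, Col11a1, Col23a1 and Col24a1. The windows of 3 cartilage collagens are printed here, with motif letters in capitals. That of Col10a1, the collagen with the widest spread among libraries, lies at chr10:34389731-34389980 on the plus strand, in sequence spanned by Nt5dc1 and outside annotated exons. It has a TATA box 32 bases and a SOX-type motif 185 bases before the start. That of Col9a1, at chr1:24177360-24177609 on the plus strand, lies in no annotated gene and has the half-site on the opposite strand, 28 bases before the start. Another entry of Col9a1, not printed here, holds a CCAAT box, which the printed window lacks. The window of Col11a1, at chr3:114030290-114030539 on the plus strand, also lies in no annotated gene. It has a CCAAT box at 79 bases and the half-site at 71 bases before the start, both on the opposite strand.
Col10a1: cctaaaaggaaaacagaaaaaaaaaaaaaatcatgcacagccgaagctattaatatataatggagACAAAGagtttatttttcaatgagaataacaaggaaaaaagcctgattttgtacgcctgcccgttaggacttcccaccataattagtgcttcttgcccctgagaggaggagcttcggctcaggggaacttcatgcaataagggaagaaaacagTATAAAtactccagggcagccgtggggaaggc
Col9a1: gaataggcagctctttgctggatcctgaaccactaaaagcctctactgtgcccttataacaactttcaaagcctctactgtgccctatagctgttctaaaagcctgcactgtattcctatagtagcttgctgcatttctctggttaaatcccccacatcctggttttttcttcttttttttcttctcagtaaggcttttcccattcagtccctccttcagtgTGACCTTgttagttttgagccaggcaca
Col11a1: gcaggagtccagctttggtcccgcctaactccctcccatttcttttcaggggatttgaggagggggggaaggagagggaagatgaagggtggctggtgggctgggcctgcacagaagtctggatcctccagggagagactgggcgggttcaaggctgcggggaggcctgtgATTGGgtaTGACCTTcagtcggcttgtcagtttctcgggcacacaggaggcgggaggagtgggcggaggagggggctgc
These matches describe letters only. The genes with the half-site differed little between the groups, with log2 fold changes (libraries labelled cKO against control) of 0.01 for Col7a1, -0.01 for Col9a1, 0.04 for Col11a1, -0.06 for Col23a1 and -0.19 for Col24a1, none of which passed the edgeR test.

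Collagen genes took a large share of the counts. The 44 collagens took 3.26% to 3.92% of all counts in each library, on totals of 33487089 to 41779836 counts. Counts are not scaled for gene length, so this is not a share of RNA molecules. All 6 hair cell markers examined were present, with a sum of 244 to 322 CPM in control and 249 to 327 CPM in libraries labelled cKO. In the lists of cell type markers 1 gene was called, the neuronal gene Elavl4 (log2 fold change -0.74, edgeR adjusted p = 0.00117). Over all 18061 tested genes 0.615% were called. Of 6 neuronal markers, 5 were lower in libraries labelled cKO, and so were 5 of 6 Schwann cell and satellite glia markers. Over all 18061 tested genes 9452 were lower. In each of these 2 lists, 3 of 6 had an unadjusted edgeR p under 0.05, against 9.43% of all tested genes. The remaining neuronal marker had a log2 fold change of 0.50. The summed neuronal markers read 805 to 912 CPM in control and 461 to 1014 CPM in libraries labelled cKO. On this sum cKO 1 lay above every control. Levels were compared between genes in FPKM, fragments per kilobase of gene length and per 1000000 fragments, as deposited. Col2a1, the chain of type II collagen, led the collagens at 966 ± 108 FPKM (SD, n = 5) in control and 1051 ± 87.4 FPKM in libraries labelled cKO, which placed it 16th among all genes. The chains of type IX, which decorates type II fibrils, came next, with Col9a2 at 710 ± 78.5 and 731 ± 62.2 FPKM and Col9a1 at 557 ± 55.4 and 556 ± 50.2 FPKM. Their SD ranges overlap those of neither Col2a1 nor each other. Col1a2 (369 ± 27.4 and 404 ± 28.6 FPKM) and Col9a3 (388 ± 72.7 and 357 ± 38.4 FPKM) lay within each other's spread in control, while in libraries labelled cKO neither mean lay within 1 SD of the other. Col11a2 and Col3a1 followed, at 263 ± 40.8 and 245 ± 19.9 FPKM in control, again within their spread. The type IV chains Col4a1 and Col4a2 had 156 ± 23.2 and 127 ± 16.8 FPKM in control. At the low end of the tested members, Col17a1, a transmembrane collagen of skin, had 0.170 ± 0.0471 FPKM in control.

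**Figure D1:**
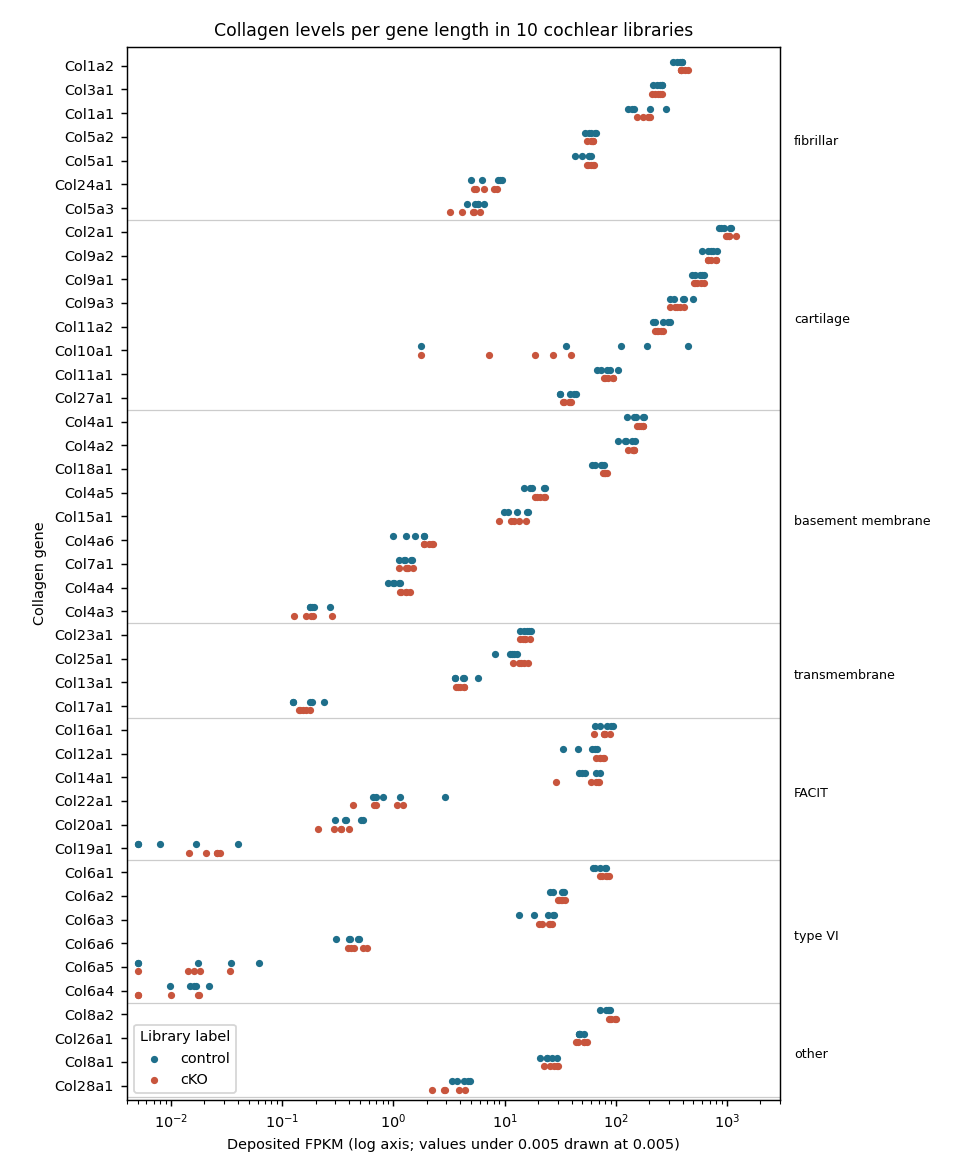
Deposited FPKM (log axis) of the collagen genes in each of the 10 libraries, grouped by class and ordered by mean level within it, with control and cKO-labelled libraries in separate colours. Col2a1 leads at a mean of 1009 FPKM, and Col10a1 shows the widest scatter, from 1.78 to 444 FPKM.

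No collagen gene was called different between the groups at an adjusted p under 0.05. Of 42 tested members, 0 were called by edgeR, against 0.615% of the 18061 genes tested (0.543% lower and 0.072% higher in libraries labelled cKO). DESeq2 and limma-voom also called 0 members, against 1.70% and 1.95% of all genes they tested. At an unadjusted p under 0.05, 7 of 42 members (16.7%) passed, against 9.43% of all tested genes. The 2 groups did not overlap in CPM for 0 of 42 members, against 2.79% of all tested genes. The median log2 fold change over the members was 0.03, beside -0.01 over all tested genes, with 18 members lower and 24 higher. Without control 2 the median over the collagens was -0.01. The 95% interval of the log2 fold change lay within ±1, a change under 2-fold, for 40 of 42 members (95.2%, against 88.3% of all tested genes) and within ±0.5 for 29 (69.0%, against 60.5%). The 2 exceptions at ±1 were Col10a1 (-5.95 to -0.18) and Col22a1 (-1.502 to 0.29). The labels describe each library as 1 animal, so p-values measure the spread between animals, and in bulk tissue a smaller number of cells of a type and less RNA per cell cannot be told apart.

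**Figure D2:**
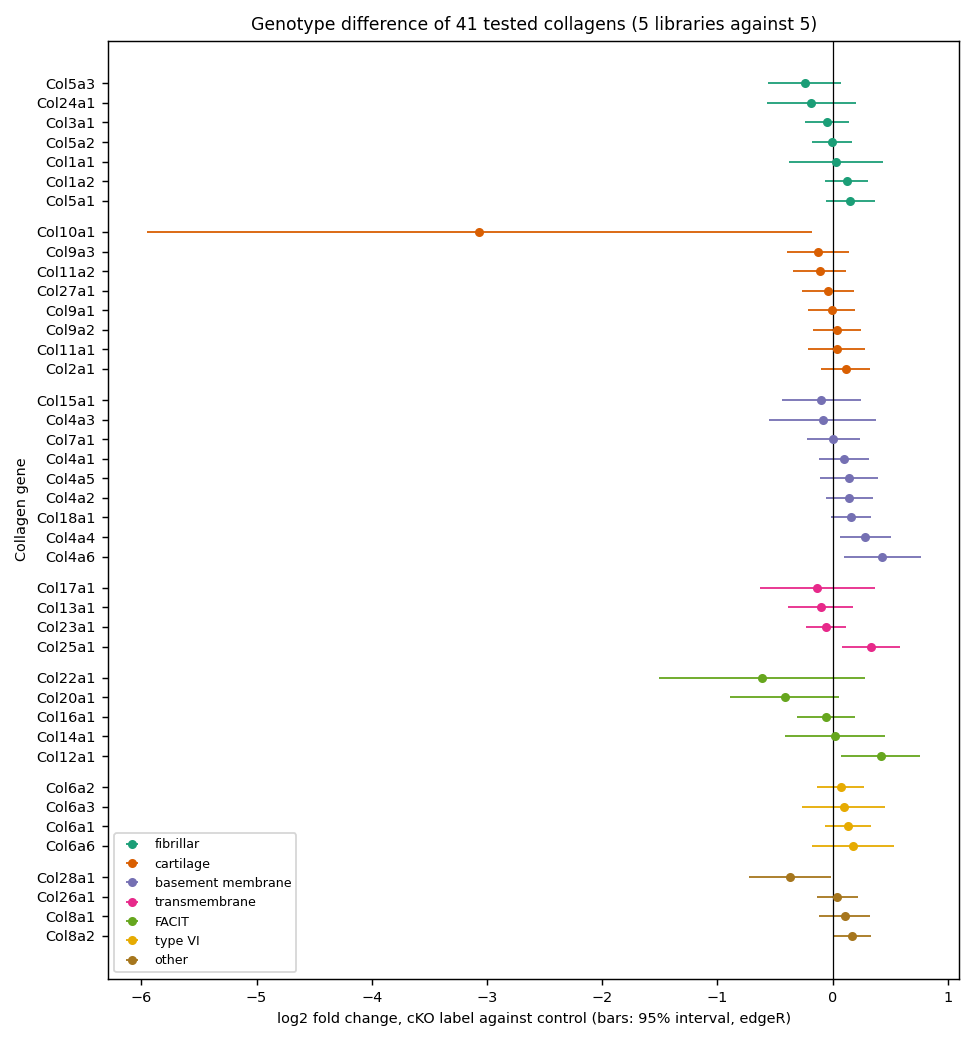
Log2 fold change of each of the 41 tested collagens, libraries labelled cKO against control, with its 95% interval from the edgeR fit, grouped by class. The intervals lie within ±1 except those of Col10a1 and Col22a1.

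Among the 7 fibrillar collagens, which form the fibres of bone, ligament and dermis, 4 were lower and 3 higher, 0 passed the test, and the median log2 fold change was -0.01. Col1a2, the second chain of type I collagen, had 4633 ± 353 CPM (SD, n = 5) in control and 5041 ± 353 CPM in libraries labelled cKO (log2 fold change 0.12, edgeR adjusted p = 0.674). Its partner Col1a1 read 844, 961, 1358, 920 and 1893 CPM in control 1 to 5 and 1149, 1351, 1306, 1282 and 1020 CPM in cKO 1 to 5. Control 5 was the highest and control 1 the lowest of all 10, so the libraries labelled cKO fell inside the range of the controls (log2 fold change 0.03, edgeR adjusted p = 0.966). Col3a1, the type III chain of elastic connective tissue, had 2423 ± 196 and 2347 ± 180 CPM. The type V chains, which regulate fibre diameter, had log2 fold changes of 0.15 (Col5a1), -0.01 (Col5a2) and -0.24 (Col5a3). Col24a1, a minor fibrillar chain of bone and cornea, had 59.3 ± 15.3 CPM in control and 52.1 ± 10.96 CPM in libraries labelled cKO.

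Of the 8 collagens of the cartilage class, 5 were lower and 3 higher, 0 passed, and the median log2 fold change was -0.02. Col2a1 (gene ENSMUSG00000022483, GRCm38 chromosome 15, 97975602 to 98004695) ranked 2nd of all genes by counts. It read 8757, 7942, 10247, 9825 and 8287 CPM in control 1 to 5 and 9729, 11124, 9284, 9578 and 9106 CPM in cKO 1 to 5. The groups overlapped, with cKO 2 highest and control 2 lowest (log2 fold change 0.12, SE 0.0994, edgeR adjusted p = 0.728). The type IX chains had log2 fold changes of -0.01 (Col9a1), 0.04 (Col9a2) and -0.13 (Col9a3), and the type XI chains, which nucleate type II fibrils, 0.04 (Col11a1) and -0.11 (Col11a2). These 6 chains of types II, IX and XI are also the collagens of the tectorial membrane, and their median log2 fold change was 0.01, with 3 lower and 3 higher. Bulk libraries do not separate the transcripts of cartilage from those of the tectorial membrane. Col27a1, a fibrillar chain of growing cartilage, had 493 ± 76.3 and 480 ± 35.0 CPM. Of the tectorial membrane genes that are not collagens (Tecta, Tectb, Otog, Otogl, Otoa and Ceacam16), 0 of 6 passed, with a median log2 fold change of 0.001. They lay on both sides of 0. Tectb, beta-tectorin, had 427 ± 67.4 and 319 ± 49.6 CPM (log2 fold change -0.42, unadjusted p = 0.00498, adjusted p = 0.245 by edgeR), and Tecta had a log2 fold change of 0.19. The summed level of the 6, of which Tecta makes up the most, was 1823 to 2764 CPM in control and 2272 to 2569 CPM in libraries labelled cKO. Log2 CPM of Col9a1 and Tecta, an alpha-tectorin gene of the same membrane, had r = -0.36 (permutation p = 0.338, adjusted 0.405) and rho = -0.13 (permutation p = 0.730, adjusted 0.730), and r was -0.62 without control 5 and cKO 2.

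Col10a1 (gene ENSMUSG00000039462, GRCm38 chromosome 10, 34389981 to 34397085, plus strand) stood apart from every other collagen by its spread. It read 113, 354, 607, 5.61 and 1411 CPM in control 1 to 5 and 22.6, 58.7, 125, 84.8 and 5.64 CPM in cKO 1 to 5, from counts between 202 and 54945. The controls spanned 252-fold and the libraries labelled cKO 22.2-fold, and the lowest value of all was that of control 4. Control 2, 3 and 5 lay above every library labelled cKO and control 1 and 4 did not, so the groups overlapped. The fitted log2 fold change was -3.07 (SE 1.27, unadjusted p = 0.0397, adjusted p = 0.4995 by edgeR), and the mean log2 CPM differed by -2.25. Without control 5 the fitted value was -2.19. The SD of log2 CPM among controls was 3.09, ranked 1 of the 11054 tested genes with a mean of 10 CPM or more, and that among libraries labelled cKO was 1.79, ranked 4. The exons of Col10a1 overlap those of Nt5dc1 on the opposite strand by 18 bases, and the use of strand in counting is not stated.

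That spread was set beside genes of cartilage and bone that are not collagens. Ibsp, bone sialoprotein, which osteoblasts and hypertrophic chondrocytes make, read 53.0, 91.9, 109, 25.0 and 318 CPM in control 1 to 5 and 54.1, 51.3, 114, 83.5 and 32.0 CPM in cKO 1 to 5. Control 5 was highest and control 4 lowest, as for Col10a1. Across the 10 libraries, log2 CPM of Col10a1 and Ibsp had r = 0.91 (permutation p = 0.00011, adjusted over 6 pairs of genes 0.00066) and rho = 0.90 (permutation p = 0.00097, adjusted 0.00291). Without control 4 and cKO 5, the libraries farthest from the median of Col10a1, r was 0.84 with a permutation p of 0.00861 and an adjusted p of 0.0517, so the adjusted value no longer passed 0.05. With the group means removed r was 0.93. Acan, the aggrecan core protein of cartilage, read 85.2, 79.8, 261, 74.1 and 228 CPM in control 1 to 5 and 105, 191, 110, 130 and 81.1 CPM in cKO 1 to 5. Matn1, a cartilage matrilin, ranged from 69.0 to 191 CPM and from 75.1 to 185 CPM. Control 3, control 5 and cKO 2 were high and control 4 and cKO 5 low for both genes.

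**Figure D3:**
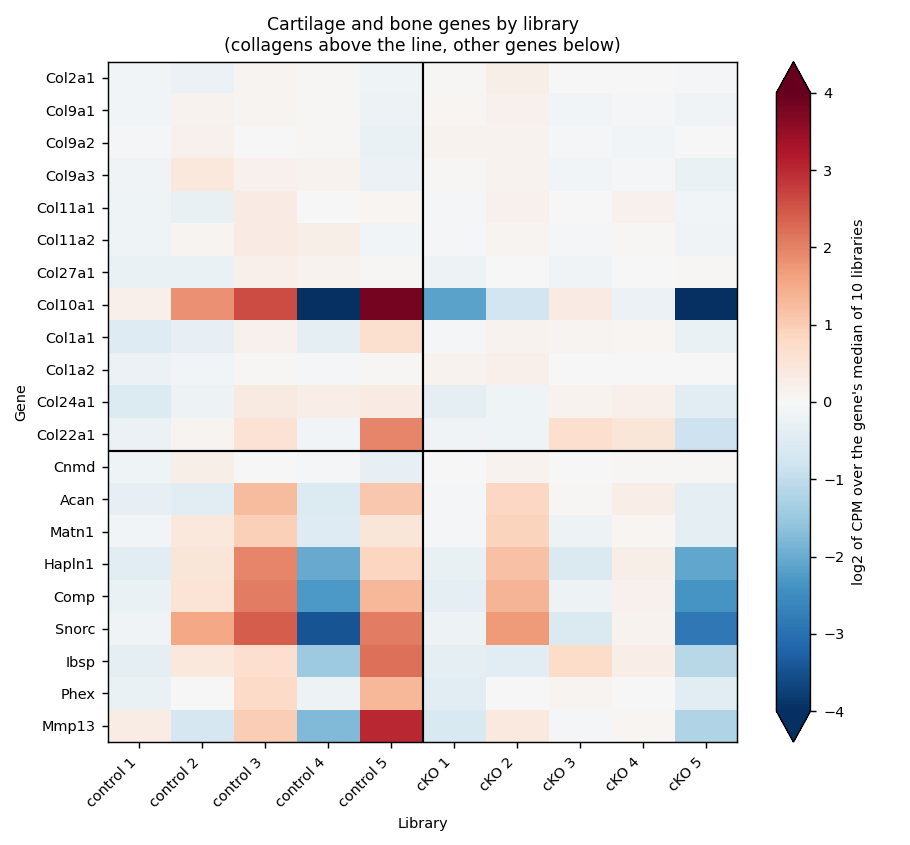
Log2 CPM of cartilage and bone collagens (upper rows) and of cartilage and bone genes that are not collagens (lower rows) in each library, shown as the difference from the gene's median over the 10 libraries; colours saturate at ±4. Control 4 and cKO 5 are low and control 3 and control 5 high for Col10a1, Hapln1, Comp, Snorc and Mmp13. The last 4 were chosen after their values were seen. Col2a1 and the type IX and XI chains stay near their median. Only some of the 12 cartilage markers are drawn, and 7 of the 12 were lowest in control 4 and cKO 5 within their groups. Sox5 and Sox6, which are not drawn, were highest in control 4 among the controls.

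Most cartilage collagens did not share that spread. The median within-group SD of log2 CPM was 0.226 among controls and 0.124 among libraries labelled cKO for the 8 cartilage collagens, against 0.677 and 0.479 for the 12 cartilage genes that are not collagens. Over all members it was 0.224 and 0.128, beside 0.227 and 0.171 over all tested genes and 0.176 and 0.124 over those with a mean of 10 CPM or more. Without control 2, the SD among controls was 0.208 for the collagens and 0.138 for all tested genes, so the collagens then varied more than the typical gene. The SD of Col2a1 was 0.157 among controls and 0.113 among libraries labelled cKO. Log2 CPM of Col2a1 and Acan had r = 0.35 (permutation p = 0.315, adjusted 0.405) and rho = 0.32 (permutation p = 0.368, adjusted 0.552), and r was -0.0021 without control 2 and cKO 2. Col2a1 and Matn1 had r = 0.23 (permutation p = 0.5165, the largest of the 6, adjusted 0.5165) and rho = 0.18 (permutation p = 0.630, adjusted 0.730), and r was 0.080 without those libraries. Cnmd, chondromodulin, was even by comparison among the cartilage genes and read 396 to 580 CPM in control and 487 to 542 CPM in libraries labelled cKO. Of the 12 cartilage genes that are not collagens, 0 passed the test, and their summed level was 872 to 1491 CPM in control and 941 to 1337 CPM in libraries labelled cKO. Of the 11 bone genes, 8 were tested and 0 passed, with sums of 178 to 614 and 190 to 347 CPM. Of the 8, 7 were lower in libraries labelled cKO, with a median log2 fold change of -0.38. Their median within-group SD was 0.523 and 0.445, and 2 had an unadjusted edgeR p under 0.05 (25%, against 9.43% of all tested genes). Of the 12 cartilage genes, 8 were lower, with a median of -0.22. Over all 18061 tested genes 9452 were lower. Bglap, Bglap2 and Mepe, products of mature osteoblasts and osteocytes, were at 33, 12 and 110 counts in all 10 libraries together and are named here after this was seen. The part of cartilage and bone left on the dissected tissue in the spread of Col10a1 was not tested.

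Col1a1 varied with the bone gene more loosely. Log2 CPM of Col1a1 and Ibsp had r = 0.78 (permutation p = 0.00907, adjusted 0.0272) and rho = 0.64 (permutation p = 0.0548, adjusted 0.110). Without control 5 and control 1, r was 0.61 over the other 8 libraries (adjusted permutation p = 0.166) and no longer passed 0.05. With the group means removed r was 0.84 over the 10 libraries. In control 5 Col1a1 was at 1893 CPM and Col1a2 at 4958 CPM, the latter within the range of the other libraries. The FPKM ratio of Col1a1 to Col1a2, the chains that join in type I collagen, was 0.723 in control 5 and 0.371 to 0.522 in the other 9 libraries. FPKM ratios depend on the gene lengths used, here the merged exon length of 6563 bases for Col1a1 and 12426 bases for Col1a2.

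**Figure D4:**
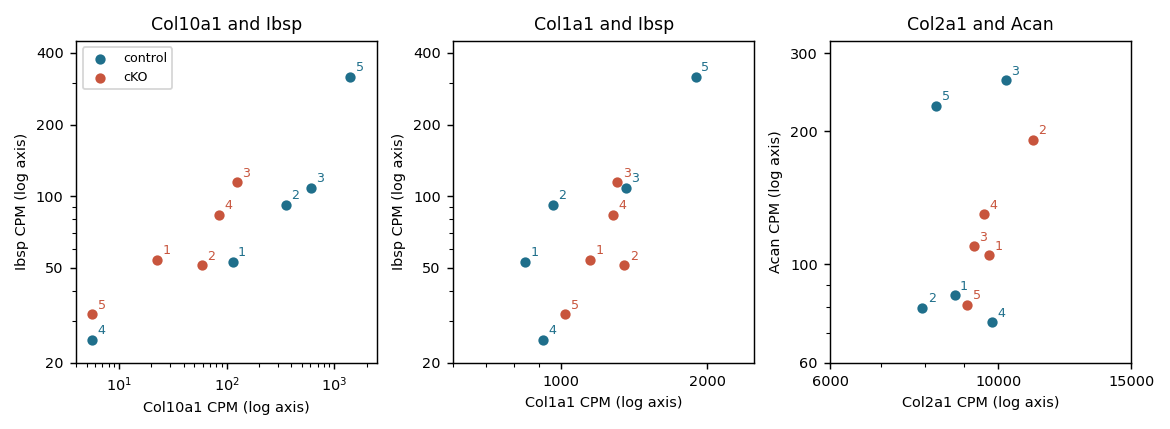
CPM (log axes) of a collagen against that of a cartilage or bone gene that is no collagen, with 1 numbered point per library, for Col10a1 and Col1a1 with Ibsp and for Col2a1 with Acan. Col10a1 and Ibsp lie along a line (r = 0.91), whereas Col2a1 and Acan do not (r = 0.35).

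Of the 9 basement membrane collagens, 7 were higher and 2 lower, 0 passed the test, and the median log2 fold change was 0.14. Without control 2 the median was 0.06. Col4a1 and Col4a2, the chains of the type IV network found in every basement membrane, had 1176 ± 173 and 850 ± 111 CPM in control and 1261 ± 64.9 and 941 ± 49.1 CPM in libraries labelled cKO. Their edgeR adjusted p-values were 0.771 and 0.652. Log2 CPM of Col4a1 and Pecam1, an adhesion protein of endothelium, had r = 0.64 (permutation p = 0.0679, adjusted 0.136) and rho = 0.90 (permutation p = 0.0008, adjusted 0.00291), and r was 0.76 without control 2 and control 1. Col4a6, a chain of epithelial basement membranes, read 12.6, 8.00, 15.1, 15.2 and 10.5 CPM in control 1 to 5 and 16.7, 18.0, 17.8, 15.1 and 15.2 CPM in cKO 1 to 5. Control 1, 2 and 5 were below every library labelled cKO, and control 3 and 4 overlapped them (log2 fold change 0.43, SE 0.156, unadjusted p = 0.0153, adjusted p = 0.380 by edgeR). Col4a4, a chain of the kidney and inner ear type IV network, read 10.6, 9.61, 11.9, 12.3 and 10.8 CPM in control 1 to 5 and 12.4, 12.2, 13.8, 13.9 and 15.1 CPM in cKO 1 to 5. Control 4 alone overlapped the libraries labelled cKO (log2 fold change 0.29, SE 0.104, adjusted p = 0.395 by edgeR). Its partner Col4a3 had 2.01 ± 0.383 and 1.89 ± 0.567 CPM and shares 563 exon bases with an opposite-strand transcript. Col4a5, mutated with Col4a3 and Col4a4 in Alport syndrome with hearing loss, had 129 ± 24.2 and 142 ± 12.9 CPM. Col18a1, the source of endostatin, had 501 ± 48.3 and 560 ± 19.3 CPM, Col15a1 84.0 ± 18.3 and 78.4 ± 16.1 CPM, and Col7a1, the anchoring fibril chain, 13.6 ± 1.499 and 13.7 ± 1.35 CPM.

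The type IV genes lie head to head in pairs. Col4a1 and Col4a2 start 21 bases apart on GRCm38 chromosome 8 and share 22 exon bases, Col4a4 and Col4a3 start 72 bases apart on chromosome 1, and Col4a6 and Col4a5 start 1309 bases apart on chromosome X. The FPKM ratio of Col4a1 to Col4a2 was 1.22 ± 0.0316 in control and 1.19 ± 0.0316 in libraries labelled cKO, with all 10 libraries between 1.13 and 1.28. The other pairs were less even, at 12.7 ± 1.47 and 10.2 ± 1.21 for Col4a5 over Col4a6 and 5.24 ± 0.725 and 7.05 ± 1.57 for Col4a4 over Col4a3. Col4a3 had 45 to 113 counts per library and Col4a6 288 to 715, against 25064 to 37878 for Col4a2. The part of low counts in the scatter of these ratios was not tested. Chains of other molecules had ratios of 2.37 ± 0.0914 and 2.48 ± 0.0616 for Col6a1 over Col6a2, 1.27 ± 0.0432 and 1.32 ± 0.0623 for Col9a2 over Col9a1, and 3.17 ± 0.550 and 2.82 ± 0.0853 for Col11a2 over Col11a1. The ratios are descriptions of chains that assemble together and were not tested.

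**Figure D5:**
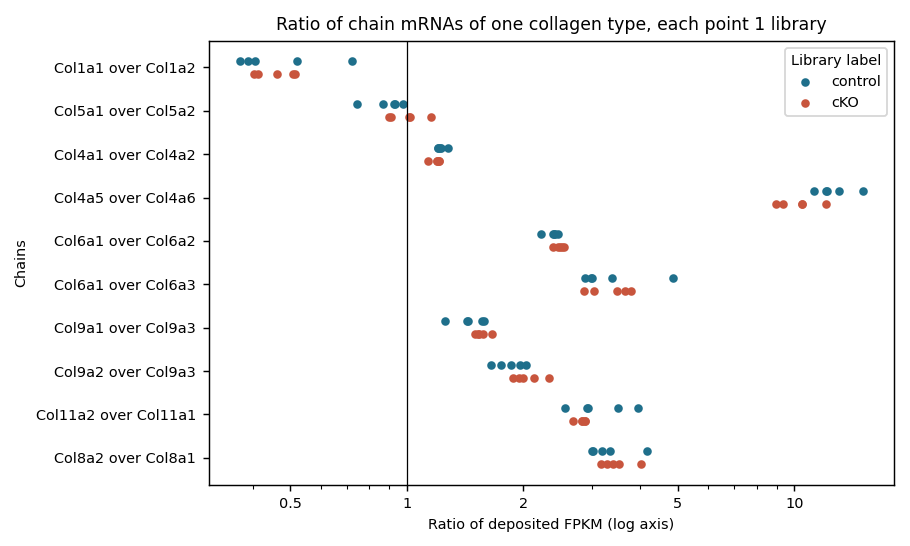
FPKM ratio of partner chains in each library, with the scale of the ratio on a log axis and control and cKO-labelled libraries in separate colours. Col4a1 over Col4a2 stays between 1.13 and 1.28, and Col1a1 over Col1a2 runs from 0.371 to 0.723. Col4a4 over Col4a3 (4.30 to 8.87) and Col9a2 over Col9a1 (1.22 to 1.41) are not drawn.

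Of the 4 transmembrane collagens, 3 were lower and 1 higher, and 0 passed the test. The one with a positive value was Col25a1, a transmembrane chain needed for motor innervation of muscle, which had the smallest unadjusted p of all collagens. It read 152, 107, 158, 170 and 146 CPM in control 1 to 5 and 177, 155, 184, 195 and 212 CPM in cKO 1 to 5. Only cKO 2 fell within the range of the controls (log2 fold change 0.33, SE 0.117, unadjusted p = 0.0131, adjusted p = 0.356 by edgeR). Col13a1, a collagen of the neuromuscular junction, had 20.02 ± 4.35 and 18.6 ± 1.44 CPM, and Col23a1 had 91.4 ± 7.62 and 87.8 ± 6.58 CPM.

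Of the 6 fibril-associated collagens outside cartilage, 5 were tested, 3 were lower and 2 higher, and 0 passed. Col12a1, which binds type I fibres in tendon and ligament, read 702, 510, 1006, 931 and 1042 CPM in control 1 to 5 and 1010, 1174, 1099, 1203 and 1113 CPM in cKO 1 to 5. Control 1 and control 2 were low, and only control 5 overlapped the libraries labelled cKO (log2 fold change 0.42, SE 0.161, unadjusted p = 0.0211, adjusted p = 0.427 by edgeR). Col14a1, a relative of Col12a1, had 408 ± 78.8 and 415 ± 121 CPM, with cKO 5 low at 203.8 CPM. Col22a1, a collagen of tissue junctions, read 6.02, 7.56, 10.6, 6.49 and 27.0 CPM in control 1 to 5 and 6.39, 6.24, 11.2, 9.90 and 3.98 CPM in cKO 1 to 5. Control 5 was the highest library, as it was for Col10a1 and Ibsp (log2 fold change -0.61, SE 0.412, edgeR adjusted p = 0.659). Without control 5 the log2 fold change was -0.02. Col16a1 had 551 ± 85.4 and 530 ± 62.3 CPM, and Col20a1 had 2.17 ± 0.533 and 1.63 ± 0.365 CPM.

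Type VI collagen forms beaded filaments around cells, and the 4 tested of its 6 genes were all higher in libraries labelled cKO, with log2 fold changes of 0.07 to 0.18 and 0 past the test. Their median log2 fold change was 0.12, and 0.05 without control 2. Col6a1 had 321 ± 40.1 and 352 ± 26.4 CPM, Col6a2 257 ± 33.8 and 270 ± 16.1 CPM, Col6a3 269 ± 75.9 and 288 ± 31.5 CPM, and Col6a6 3.84 ± 0.707 and 4.36 ± 0.727 CPM. Under limma-voom the values of Col6a2 and Col6a3 were at or below 0. Among the 4 other collagens, the network chains Col8a1 and Col8a2 had 198 ± 25.6 and 375 ± 27.1 CPM in control and 213 ± 23.8 and 422 ± 25.3 CPM in libraries labelled cKO. Col8a2 (log2 fold change 0.17, edgeR adjusted p = 0.519) and Col28a1, a chain of peripheral nerve (20.7 ± 3.11 against 16.0 ± 4.25 CPM, log2 fold change -0.37, edgeR adjusted p = 0.518), were past an unadjusted p of 0.05 only. The summed Schwann cell and satellite glia markers read 901 to 1081 CPM in control and 575 to 978 CPM in libraries labelled cKO. Their part in the value of Col28a1 was not tested. Col26a1 had 395 ± 17.0 and 407 ± 39.4 CPM, and Col4a3bp 60.8 ± 9.22 and 66.1 ± 7.45 CPM.

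With all 10 libraries used, the spread of the members within a group lay between that of all tested genes and that of the more abundant genes. The highest library was under 1.5 times the lowest for 23 members (54.8%) among controls and 33 (78.6%) among libraries labelled cKO, against 51.5% and 65% of all tested genes and 69.3% and 89.8% of those with a mean of 10 CPM or more. It was under 3 times for 40 and 41 members. Col10a1 and Col22a1 exceeded 3 times among controls, and Col10a1 alone did among libraries labelled cKO. For 37 of 42 members (88.1%) the SD of log2 CPM was smaller among libraries labelled cKO than among controls. The same held for 63.1% of all tested genes and 69.6% of those with a mean of 10 CPM or more. Control 1 was the lowest control for 16 members and control 2 for 17. Among libraries labelled cKO, cKO 4 and cKO 5 were each the lowest for 16 members. Over all 18061 tested genes cKO 5 was the lowest of its group for 3892. That count was not made for control 1, control 2 and cKO 4. On the first principal component of the whole table control 2 stood apart at -29.5, the other controls being between -4.23 and 6.82. In the other group cKO 5 was at 17.3, the rest being between -1.06 and 1.95. By the criterion for distant libraries given below (Dixon), cKO 5 was flagged on this component and control 2 was not. Without control 2, the median SD of log2 CPM among controls was 0.208 for the collagens and 0.138 for all tested genes. The collagens then varied more than the typical gene. The number of collagens called without control 2 was still 0, and the same held without each of the other 9 libraries in turn.

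The genes that make and handle collagen were taken from a list of 51, all of which were tested. Of these, 0 were called, 40 were higher and 11 lower in libraries labelled cKO, and the median log2 fold change was 0.09. Over all 18061 tested genes, 8609 were higher and 9452 lower, with a median of -0.01. At an unadjusted edgeR p under 0.05 there were 10 of the 51 (19.6%, against 9.43% of all tested genes). The median of the 51 was not recalculated without control 2. The 18 genes of chain modification and folding had a median of 0.05. Serpinh1, the collagen chaperone, had 1256 ± 166 and 1213 ± 162 CPM, and P4hb, a subunit of prolyl hydroxylase, 858 ± 62.4 and 859 ± 52.6 CPM. Propeptide cleavage (8 genes) had a median of 0.15, with Bmp1, the procollagen C-proteinase, at 269 ± 13.8 and 281 ± 17.6 CPM. Cross-linking (5 genes) had a median of 0.10, and Lox, lysyl oxidase, had 316 ± 28.2 and 398 ± 38.0 CPM (log2 fold change 0.33, edgeR adjusted p = 0.172). Receptors (8 genes) had a median of 0.13, degradation enzymes (6 genes) -0.14 and fibril-binding proteoglycans (6 genes) 0.25. The groups did not overlap for 2 of the 51 genes (3.92%, near the 2.79% of all tested genes), Mrc2, an endocytic collagen receptor (244 ± 14.5 and 288 ± 6.78 CPM, edgeR adjusted p = 0.205), and Bgn, biglycan (455 ± 33.1 and 545 ± 44.8 CPM, edgeR adjusted p = 0.298). Both are named because their groups did not overlap, which was seen in the data.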

How the data were processed

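RNA was measured in 10 cochlea libraries, 5 per group, read as paired 150-base reads. The authors deposited whole-number counts per Ensembl gene and FPKM values, made with STAR 2.5 and HTSeq 0.61 on mm10, per the submitters' processing notes, which also name DESeq2; the use of strand is not given in the sources used here. Groups and replicate numbers were taken from sample titles. GENCODE M21 (GRCm38) supplied symbols, positions and overlaps for 54495 of 54532 IDs, and the 37 other IDs took 0.00763% of counts. The lengths implied by the FPKM matched its exon lengths within 0.1% for 40 of the 42 tested members; Col11a2 and Col17a1 were the exceptions.

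The deposited counts were tested in R 4.3.3 with edgeR 4.0.16 (TMM factors, robust quasi-likelihood F-test, genotype as the only term) over the 18061 genes with at least 10 counts in at least 5 libraries, with Benjamini-Hochberg adjustment over them and a threshold of 0.05. CPM uses TMM factors, and log2 CPM a prior count of 2. Correlations used 100000 resamples, two-sided. Alternatives were RLE factors, no filter, filterByExpr, DESeq2 1.42.0, limma-voom (limma 3.58.1), a replicate block, a threshold of 0.1 and leaving out each library. The calculations were tested on simulated data. The precision is limited by 5 libraries per group.

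The members and lists were chosen with earlier results of these data known. Named genes were all members and, from the pathway and marker lists, called genes, those of the correlation pairs and up to 3 genes with the highest mean CPM per list; others are said to be chosen after their values were seen. Protein sequences were not used here. Same-numbered libraries were checked for shared deviations and were not treated as pairs.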

Additional observations from a re-analysis of the deposited data

Results flagged for a closer look

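The values of each group of 5 libraries were examined for a highest or lowest library that stood far from the rest (Dixon's criterion). Over 90 such groups, 84 of them of tested members, 5 cases were found, where chance gives 4.5. Col14a1 was at 203.8 CPM in cKO 5, the others of its group being between 421 and 494 CPM. Col22a1 was at 27.0 CPM in control 5, the other controls being between 6.02 and 10.6 CPM. Col4a2 was at 856 CPM in cKO 4, the others of its group being between 945 and 976 CPM. Col4a3 was at 2.69 CPM in control 4, the other controls being between 1.78 and 1.92 CPM. On the first principal component of the whole table, cKO 5 was at 17.3, the others of its group being between -1.06 and 1.95.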

How the results depend on the processing

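The number of collagens called, 0 lower and 0 higher, was the same under every alternative run. Over the whole table, 98 genes lower and 13 higher became 253 and 54 with DESeq2, 303 and 49 with limma-voom, and from 44 to 177 lower and from 7 to 17 higher when 1 library was left out (fewest without control 3, most without control 2). At a threshold of 0.1, 24 genes were higher. Replicate numbers were not treated as pairs. Correlations of same-numbered deviations were 0.0861, 0.176, 0.0945, 0.0232 and 0.18, all positive, and numbers 2, 3 and 5 correlated best with themselves. These values do not settle whether same-numbered libraries were paired. With the replicate block, Esrrg had a log2 fold change of 0.61 and an edgeR adjusted p of 0.0623. Leaving out 1 library gave it 0.54 to 0.70, with adjusted p from 0.0131 to 0.0998, above 0.05 in 6 of 10 cases. Small uncalled fold changes crossed 0. With limma-voom they were -0.053 for Col11a1, -0.115 for Col14a1, 0.0555 for Col17a1, -0.0126 for Col4a1, -7.957e-06 for Col6a2, -0.0398 for Col6a3 and -0.0974 for Col7a1. The replicate block gave -0.0215 for Col14a1, and no filter gave 0.00366 for Col5a2 and 6.667e-05 for Col9a1. When 1 library was left out, the log2 fold change ran from -0.0333 to 0.132 for Col11a1, -0.165 to 0.0331 for Col13a1, -0.0449 to 0.196 for Col14a1, -0.126 to 0.00842 for Col16a1, -0.225 to 0.0191 for Col17a1, -0.0702 to 0.261 for Col1a1, -0.00127 to 0.086 for Col26a1, -0.0985 to 0.0212 for Col27a1, -0.272 to 0.0409 for Col4a3, -0.0455 to 0.0261 for Col5a2, -0.044 to 0.189 for Col6a3, -0.0475 to 0.062 for Col7a1, -0.0543 to 0.0262 for Col9a1 and -0.0166 to 0.0831 for Col9a2. For Col10a1 it ran from -3.53 to -2.19, with edgeR adjusted p from 0.372 to 0.780. Without the 2 libraries farthest from the median, r was -0.0021 for Col2a1 with Acan, 0.607 for Col1a1 with Ibsp and 0.839 for Col10a1 with Ibsp. The median SD over all tested genes among controls ran from 0.138 (without control 2) to 0.239, and that of the fibril-associated class among libraries labelled cKO from 0.114 (without cKO 5) to 0.392. Rescaling to TPM multiplied every FPKM of a library by 2.98 (control 2) to 3.63 (cKO 5), which leaves the order of genes within a library as it was. The cause of these shifts was not tested.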

Other observations

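The genes of this paragraph were chosen after their values were seen. Of the 12 cartilage markers, 7 were lowest in control 4 among the controls and in cKO 5 among the libraries labelled cKO, as Col10a1 was. The same held for 6 of the 8 tested bone markers and for 4% of all tested genes. Among the 42 tested members it held for Col10a1 alone (2.38%). The other cartilage markers did not follow this order, and Sox5 and Sox6, transcription factors of chondrocytes, were highest in control 4 among the controls, at 50.2 and 40.04 CPM. Mmp13, the collagenase of hypertrophic cartilage, read 6.32, 3.19, 10.2, 1.498 and 41.8 CPM in control 1 to 5 and 3.39, 6.67, 4.86, 5.41 and 2.22 CPM in cKO 1 to 5. Loxl4, a lysyl oxidase relative, read 7.38, 6.64, 34.7, 1.08 and 46.8 CPM in control 1 to 5 and 4.77, 11.9, 9.33, 7.498 and 1.57 CPM in cKO 1 to 5. Comp, the cartilage oligomeric matrix protein, and Hapln1, the link protein of cartilage, were at 4.69 and 11.3 CPM in control 4 and at 96.8 and 178 CPM in control 3. In cKO 5 they were at 4.55 and 10.8 CPM, the lowest of their group. None of these genes passed the edgeR test between the groups.

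Osteoclasts resorb bone and calcified cartilage, and the median log2 fold change of their markers was -1.10 over 6 tested genes, 0 of which passed the test. Of these, 5 had a negative value. The median within-group SD of log2 CPM of the 6 was 0.898 among controls and 1.08 among libraries labelled cKO. Over all tested genes it was 0.227 and 0.171. Mmp9, a gelatinase, had 77.2 ± 36.1 CPM (SD, n = 5) in control and 45.9 ± 24.2 CPM in libraries labelled cKO. Acp5, tartrate-resistant acid phosphatase, and Atp6v0d2, a proton pump subunit named after its values were seen, gave log2 fold changes of -1.06 and -1.19 (edgeR adjusted p = 0.515 and 0.483). Ctsk, cathepsin K, which other cells of connective tissue also make, had 137 ± 19.9 and 141 ± 21.8 CPM. The summed level of the 6 was 165 to 288 CPM in control and 161 to 213 CPM in libraries labelled cKO. Skeletal muscle genes were low, with a sum of 2.95 to 5.64 CPM in control and 3.79 to 4.80 CPM in libraries labelled cKO.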
